A study of Mus musculus with 2 samples.

Results

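Mir139 is a microRNA (miRNA) gene inside an intron of Pde2a, a gene for a cyclic nucleotide phosphodiesterase. It was chosen by name, with its high read count already known, as the row of each deposited table whose GENCODE M21 name is Mir139, and it is 1 gene of the 2202 in each table. The tables come from microRNA-seq, a sequencing of the short RNA fraction in which mature miRNAs are found, of adrenal glands from female B6CASTF1/J mice aged 36 days, a hybrid of a laboratory strain and a wild-derived strain with no treatment named. There was 1 group of 2 libraries, numbered by the labels as biological replicates 1 and 2 from separately numbered females. The labels give both the same donor identifier, so the spread between them may be technical. The whole gland was used, so cortex and medulla were not separated.

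A miRNA is cut from a hairpin in a longer transcript, and the strand that is kept guides a silencing complex to messages that pair with its seed, bases 2 to 8. A hairpin in an intron is commonly released from the transcript of its host gene. Pde2a encodes the phosphodiesterase that cGMP stimulates to break down cAMP. In the adrenal cortex this enzyme is best known from the zona glomerulosa, where natriuretic peptides raise cGMP and thereby restrain cAMP-driven aldosterone output. miR-139 is known mainly as a miRNA that is reduced in several tumours and whose reported targets include the receptor Igf1r and the kinase Rock2. Messages of Pde2a and of these targets were not measured in these libraries.

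The sequences identify what was counted. They are taken from RefSeq for GRCm38.p6 and lie on the plus strand of chromosome 7. The hairpin, chr7:101475376-101475443, is 68 bases long, with both mature arms in capitals, and in each arm the seed is in capitals.
Mir139 hairpin: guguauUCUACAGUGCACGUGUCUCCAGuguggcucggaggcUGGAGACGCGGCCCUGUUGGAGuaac
mmu-miR-139-5p: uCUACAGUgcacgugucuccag
mmu-miR-139-3p: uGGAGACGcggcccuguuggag
The arms, of 22 bases each, lie at chr7:101475382-101475403 and chr7:101475418-101475439, with 14 bases between them. RNAfold paired 19 of the 22 bases of the 5p arm with the 3p arm, at a minimum free energy of -35.6 kcal/mol. A read of either arm adds to the same count of the gene, so the shares of the arms are not known. No other mature miRNA in the RefSeq table, which holds 1679 names, has the seed of either arm. That is usual, since 86.6% of the 1398 seeds in that table belong to 1 gene. With the shorter core of bases 2 to 7, 1 other match appeared, miR-6397 for the 3p arm, and its gene Mir6397 had 0 counts in both libraries.

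The longest stretch that the hairpin shares with any other annotated miRNA hairpin, on either strand, is 11 bases. A stretch of at least 20 bases is shared with another hairpin by 28 of the 113 detected intronic genes. Reads with several mapping places were not counted for any gene, and they took 28.5% and 30.6% of all reads in replicates 1 and 2, so the levels of such genes are less certain than that of Mir139. Copies of the Mir139 arms outside annotated miRNA genes were not searched for. Opposite Mir139, on the minus strand, there is no annotated miRNA gene. All 145859 reads of replicate 1 and 57089 of replicate 2 were on the sense strand, and counting without strand gave the same numbers. The antisense count was 0 in both libraries, which allows at most 0.00206% and 0.00525% of the sense counts, by counting error alone.

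Mir139 lies deep in a long intron of Pde2a (chromosome 7, 101421691 to 101512827, plus strand, mm10, 91137 bases). Of 12 annotated Pde2a transcripts, 10 contain the hairpin, and in each of them it is intronic. In the 4 protein-coding transcripts it is in intron 2, of 29902 bases, 23907 bases after exon 2 and 5927 bases before exon 3. The nearest annotated exon of any Pde2a transcript is 5841 bases away. That distance is longer than for 88 of the 113 detected intronic genes, whose median is 1115 bases. Transcripts of Pde2a start at several sites upstream of the hairpin, from 53685 bases (Pde2a-201) to 14432 bases (Pde2a-210) before it, and the counts do not show from which start a hairpin came. A longer protein-coding gene, Gm45837 (101410886 to 101512819, plus strand), also holds the hairpin in an intron. Mir139 is the only annotated miRNA gene inside Pde2a.

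**Figure D1:**
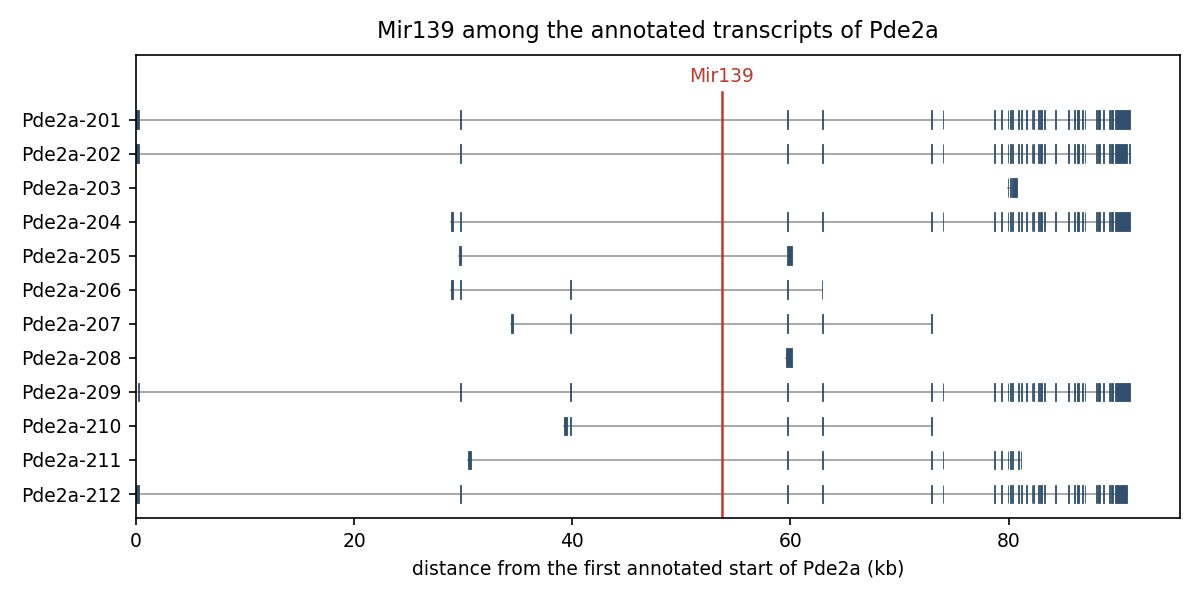
Annotated GENCODE M21 transcripts of Pde2a, with the distance from the first annotated start of Pde2a in kb on the horizontal axis. Blocks are exons, thin lines are introns and the red line is Mir139, which lies in an intron of 10 of the 12 transcripts, 53685 bases after the first start.

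Mir139 was among the abundant miRNA genes of the gland. Its level is given as a normalised read count (CPM), that is, sense counts of the gene per 1000000 sense counts over all miRNA genes. The level was 27023 CPM in replicate 1 (95% Wilson interval 26886 to 27160). In replicate 2 it was 18841 CPM (18689 to 18995). Replicate 1 was the higher library, and the intervals, which cover counting error only, did not overlap. The mean was 22932 ± 5785 CPM (SD, n = 2), or 2.29% ± 0.579 of all sense miRNA counts. Of all reads, mapped or not, Mir139 held 1.04% in replicate 1 and 0.758% in replicate 2. These shares rest on 5397603 and 3029977 sense miRNA counts, so the spread between the libraries, not the depth, limits the precision.

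Mir139 ranked 13 among all 2202 genes in replicate 1, 15 in replicate 2 and 15 by its mean. Another 15 detected genes had a geometric mean level within 2.26-fold of Mir139. That fold is the limit beyond which a pair of genes differs by more than the spread pooled over all genes, a coefficient of variation of 41.6% between the libraries. They ran from Mirlet7i of the let-7 family, at 41501 ± 3175 CPM, to Mir30a at 11454 ± 302 CPM. Only 5 detected genes were above that limit. Detected means 10 or more sense counts in each library, which 339 genes reached. The rank of Mir139 is therefore known only to within this band.

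The genes next to Mir139 in the order changed sides of it between the libraries. Mir10b, a gene of the Hoxd cluster placed just above by its mean (24606 ± 12204 CPM), had 15976 CPM in replicate 1 and 33235 in replicate 2. Mir322, a gene of an X-linked cluster placed just below (20589 ± 7447 CPM), had 15323 CPM in replicate 1 and 25855 in replicate 2. Both were below Mir139 in replicate 1 and above it in replicate 2. Mir21a (26772 ± 11071 CPM), widely known from tumours, did the same, and Mir22 (26649 ± 22145 CPM) did the reverse. Mir23b (33302 ± 7832 CPM) and Mir375 (25584 ± 4721 CPM) were above Mir139 in both libraries. The next genes down, Mir99a (13438 ± 2250 CPM), Mirlet7d (13418 ± 376), Mir127 (11882 ± 175) and Mir30e (11770 ± 1073), were below it in both, by 1.68-fold to 1.92-fold in geometric mean, which is inside the limit.

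Among intronic miRNA genes Mir139 came seventh by its mean. Intronic here means a hairpin wholly inside a protein-coding gene of the same strand and overlapping no exon of that gene in any of its transcripts. That held for 741 of the 2202 genes, of which 113 were detected (15.2%, against 15.5% of the other genes). The intronic genes together held 48.4% of the sense miRNA counts in replicate 1 and 45.8% in replicate 2. Mir139 held 5.58% of these (95% Wilson interval 5.55 to 5.61%) in replicate 1 and 4.11% (4.08 to 4.14%) in replicate 2, a mean of 4.84% ± 1.04. It ranked 6 among them in replicate 1 and 7 in replicate 2. With counts made without strand, where Mir126a and Mir378a lose nearly all their reads, the share was 8.06% and the rank 5. The detected intronic genes had a median of 126 CPM, and the mean of Mir139 was 183-fold above it.

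The intronic genes above Mir139 sit in hosts with other functions. Mirlet7g, in the intron of Wdr82, had 96023 ± 7753 CPM, and Mir378a, in Ppargc1b, a coactivator gene of mitochondrial function, had 61401 ± 8455. Mir126a (101247 ± 45201 CPM), the endothelial miRNA, counts as intronic only in Gm20532, because it overlaps an exon of some annotated transcript of Egfl7. These 3 were higher than Mir139 by more than the limit, by 2.71-fold to 4.26-fold in geometric mean. Mir26b, in the phosphatase gene Ctdsp1, had 34226 ± 5672 CPM, and it was 1.12-fold above Mir139 in replicate 1 and 2.03-fold in replicate 2. Mir23b, in 2010111I01Rik, was 1.03-fold above Mir139 in replicate 1 and 2.06-fold in replicate 2. Neither differed from Mir139 by more than the limit, and Mir378a and Mir23b share 20 bases or more with another hairpin.

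Below Mir139 the intronic genes fell away. Mir30e, in the transcription factor gene Nfyc, was 1.92-fold lower in geometric mean and still inside the limit. Mirlet7e, in Spaca6, was 2.46-fold lower, with 9234 ± 1443 CPM, and Mir652, in Tmem164, was 2.88-fold lower, with 7963 ± 1929 CPM. From Mirlet7e down, all 105 detected intronic genes were below Mir139 by more than the limit. Mir26b, Mir23b, Mir10b and Mir30e were therefore the 4 detected intronic genes that this spread could not put in order with Mir139. The limit was applied to each of them against Mir139, not among them. The 5p arms of the 3 of these genes that share no 20 bases with another hairpin are shown to compare their seeds (capitals) with those of Mir139, again from RefSeq for GRCm38.p6.
mmu-miR-26b-5p: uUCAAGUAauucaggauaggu
mmu-miR-10b-5p: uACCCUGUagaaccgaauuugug
mmu-miR-30e-5p: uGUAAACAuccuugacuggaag
None of these seeds is the seed of an arm of Mir139. The GC content of the 5p arm of Mir139 was 54.5%, against 33.3%, 43.5% and 40.9% for these 5p arms. That of its 3p arm was 68.2%, against 50.0%, 40.9% and 45.5% for the 3p arms of the same genes, in the same order.

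**Figure D2:**
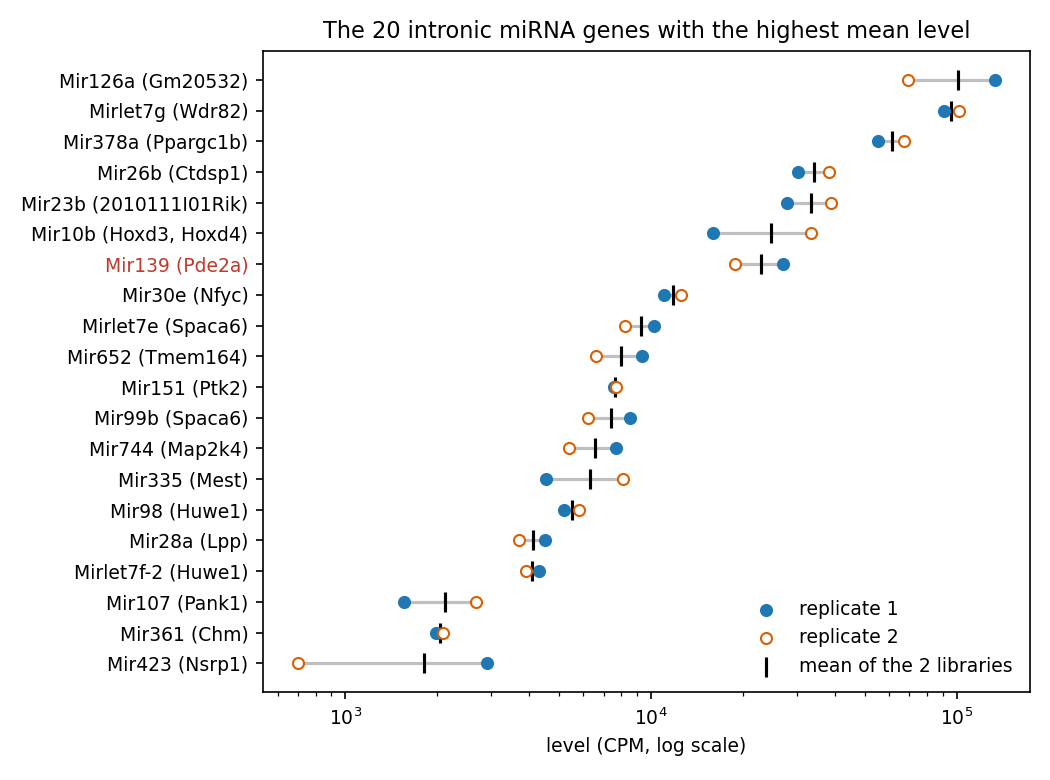
Level in CPM (log scale, horizontal axis) of the 20 intronic miRNA genes with the highest mean, with intronic host genes in parentheses (Gm45837 is left out for Mir139). Filled circles are replicate 1, open circles replicate 2 and black ticks the mean. Mir139 (red label), at 27023 and 18841 CPM, overlaps in range with Mir10b and lies above Mir30e in both libraries.

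The other genes of a reference list of 47 well-known miRNA genes inside protein-coding hosts were mostly far below Mir139. All 47 were found in the annotation, 42 of them intronic by the definition used. Detected were 43, against 339 of all 2202 genes, but the list was picked from well-known genes. Of this list, only Mirlet7g, Mir378a and Mir26b had a higher mean than Mir139. The other intronic genes above it, Mir126a, Mir23b and Mir10b, are not on the list. Mir335, in the imprinted gene Mest, had 6308 ± 2527 CPM, and Mir107, in the pantothenate kinase gene Pank1, had 2114 ± 797. Mir33, in the sterol regulator gene Srebf2, had only 23.0 ± 3.11 CPM. Mir326, in the arrestin gene Arrb1 on the same chromosome as Mir139, had 71.5 ± 34.4 CPM.

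Mir139 was far above the other miRNA genes in hosts linked by symbol to cyclic nucleotide signalling. The list held 7 miRNA genes inside protein-coding genes whose symbols start with letters such as Pde, Adcy, Gucy or Prka, and Mir139, chosen with its high count known, was the only one detected. That is close to the 15.2% of intronic and 15.5% of other genes detected, but it rests on the chosen gene and says nothing of the list. Mir582, in Pde4d, a cAMP phosphodiesterase gene, reached 2.78 ± 0.266 CPM, from 14 counts in replicate 1 and 9 in replicate 2. Mir7672, in Pde12, had 1 count in each library, and Mir7010, in the guanylate cyclase gene Gucy1a1, had 0 and 1. Mir7225 in Pde4dip, Mir1904 in Pde4d and Gm44413 in Pde1c had 0 counts in both libraries. By counting error alone, a count of 0 allows 0.556 CPM at most in replicate 1 and 0.990 in replicate 2. The match is by symbol, and Pde12 and Pde4dip are not cyclic nucleotide phosphodiesterases. Levels of a miRNA do not give the levels of its host, and none of these hosts was measured.

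Within 1 Mb of Mir139 there were 2 other annotated miRNA genes. Mir3102, 592967 bases away on the minus strand and inside Arhgef17, had 190 CPM in replicate 1 and 94.4 in replicate 2. Gm22655, 405741 bases away inside Anapc15, had 0 counts in both.

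The gene most like Mir139 over the 2 libraries was Mir375, the miRNA gene of endocrine cells. Likeness was the summed absolute difference of log2 CPM from Mir139 over the libraries, and it was 0.34 for Mir375. Mir375 had 28922 CPM in replicate 1 and 22246 in replicate 2, or 1.07-fold and 1.18-fold the level of Mir139. The next were Mir23b (1.08), Mir26b (1.18), Mir322 (1.27) and Mir21a (1.39). Unlike Mir139 and Mir375, those 4 genes had more CPM in replicate 2 than in replicate 1. With 2 libraries this likeness is of levels, and it shows nothing of how the genes vary across tissues or animals.

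**Figure D3:**
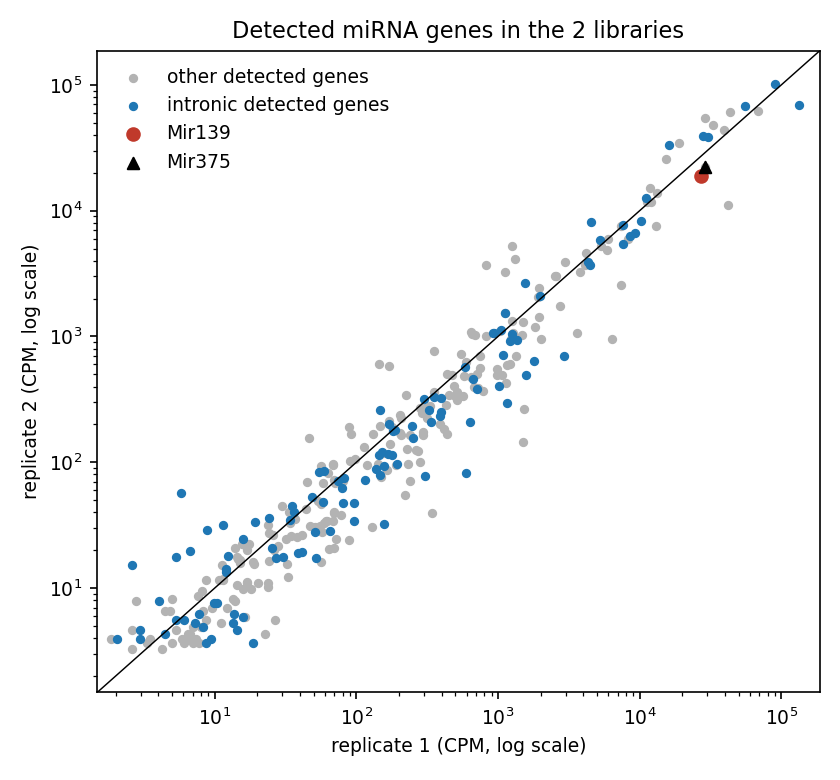
Level of the 339 detected miRNA genes in replicate 1 (horizontal axis) and replicate 2 (vertical axis), in CPM on log scales, with the line of equal levels. Mir139 (red circle) and Mir375 (black triangle) lie next to each other, both below the line, with more CPM in replicate 1.

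On a list of 18 miRNA genes named in studies of adrenocortical tumours, drawn up from general knowledge, Mir139 was among the most abundant. Of these, 17 were found by name (Mir7a-1 was not) and 16 were detected, against 339 of all 2202 genes. Only Mir21a and Mir375 had a higher mean. The list was picked by hand and holds Mir139, whose high count was known, so its place there is a description. Below Mir139 came Mir335 (6308 ± 2527 CPM), Mir195a (3666 ± 3828), Mir7b (2790 ± 312), Mir100 (2181 ± 352), Mir214 (896 ± 894), Mir376a (854 ± 239) and Mir34a (766 ± 303). Mir195a was the least even of these, with 34396 counts in replicate 1 and 2907 in replicate 2. Mir483, in the growth factor gene Igf2 and known for high levels in adrenocortical carcinoma, had 11.2 ± 10.7 CPM in these glands.

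How Mir139 compared between the libraries depended on the scaling. Its 145859 and 57089 counts were 2.55-fold apart, and the depths of the libraries were 1.78-fold apart. With TMM scaling, replicate 1 was 1.16-fold higher (log2 ratio 0.22), and with total counts it was 1.43-fold higher (log2 ratio 0.52). In a two-sided exact binomial test, adjusted by Benjamini-Hochberg over all genes tested, this ratio was called (adjusted p = 9.56e-210). The test called 58.5% of the 434 genes whose counts summed to at least 10, and 30.2% as higher in replicate 1, so a call is common and says little of Mir139. The test takes counting error as the only error and compares these libraries, not conditions. With the pooled spread of all genes as the error, edgeR's exact test gave an adjusted p of 0.999 for Mir139. That test called 0 of the 434 genes, with 24 at an unadjusted p under 0.05. Its spread was estimated from these same 2 libraries, so the differences under test are themselves the error. The lost call therefore decides nothing for Mir139.

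The place of this ratio among other genes also moved with the scaling. Of the 434 tested genes, 75 had a smaller absolute log2 ratio than Mir139 with TMM, where the median was 0.57, and 182 had a smaller one with total counts, where the median was 0.62. Among the 20 genes highest by mean, 2 had a smaller one with TMM and 12 with total counts. Only 4 of these 20 were higher in replicate 1 with TMM, Mir126a, Mir22, Mir375 and Mir139, and 6 were so with total counts. TMM moved all log2 ratios by 0.30, from a median of 0.37 with total counts to 0.06. The intronic genes tested, 165 in all, had a median log2 ratio of 0.08, against 0.06 for the other 269.

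Hairpins richer in GC had higher ratios. The Mir139 hairpin is 58.8% GC, above 276 of the 339 detected genes, whose median is 50.0%. Across the 434 tested genes the log2 ratio was higher by 0.25 for each 10 percentage points of GC on a linear trend, which gives 0.27 at the GC content of Mir139, beside its measured 0.22. The 120 tested genes within 5 percentage points of Mir139, itself among them, had a median log2 ratio of 0.23. With the slope of the trend removed, but not its overall level, the log2 ratio of Mir139 was 0.04 (exact binomial test, adjusted p = 3.27e-09). That value is not the distance from the line, since the measured 0.22 is below the 0.27 of the trend. The part of GC content in the ratio was not tested otherwise.

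**Figure D4:**
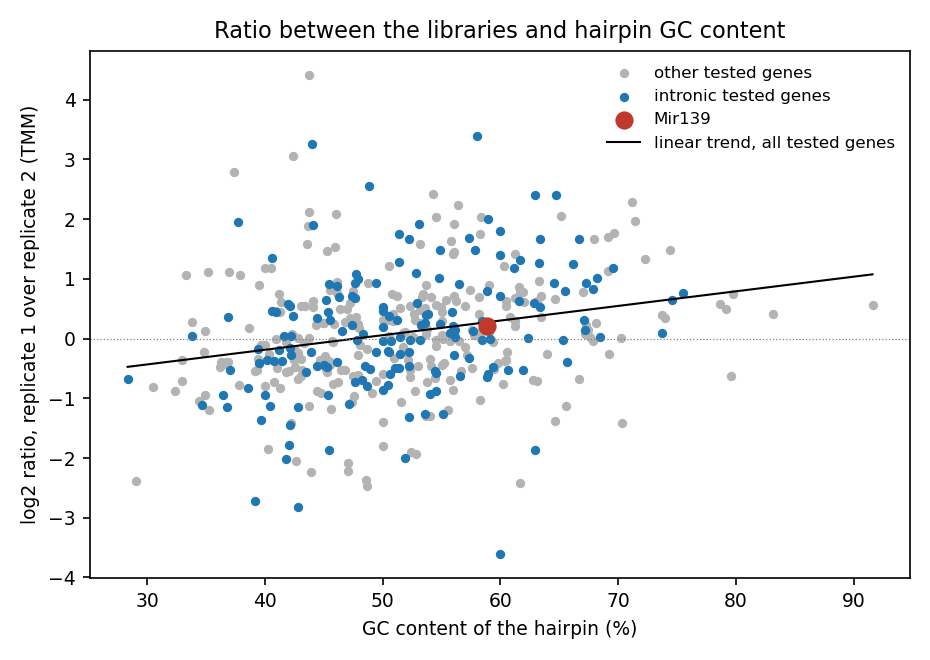
Log2 ratio of replicate 1 over replicate 2 with TMM scaling (vertical axis) against the GC content of the hairpin in percent (horizontal axis) for the 434 tested miRNA genes, with the linear trend over all of them. Mir139 (red), at 58.8% GC and a log2 ratio of 0.22, lies close to the trend.

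Genes that mark other cells, of the gland or carried along with the tissue, also differed between the libraries. The binomial test called 58.5% of all 434 tested genes, and 30.2% as higher in replicate 1, so a call says little of any marker. The endothelial pair Mir126a and Mir126b summed to 133214 CPM in replicate 1 and 69289 in replicate 2. Only Mir126a was called, as higher in replicate 1, while Mir126b had 5.37 and 4.62 CPM. The 4 genes for smooth muscle and fibroblasts summed to 31782 and 59522 CPM. With TMM, Mir143, Mir145a and Mir199b were called higher in replicate 2, and Mir214 (1528 and 264 CPM) was called higher in replicate 1. The 6 genes for medulla and neurons summed to 31926 and 25758 CPM, mostly from Mir375, which was called higher in replicate 1 (log2 ratio 0.08 with TMM). Mir7b (2569 and 3010 CPM) and Mir137 (435 and 503 CPM) were called higher in replicate 2, and Mir124a-1, Mir124a-2 and Mir124a-3 had 0 counts in both. The Mir124a genes share at least 20 bases with another hairpin, so their reads may be in no gene's count. The hepatocyte gene Mir122 had 1503 and 146 CPM, the 3 red-cell genes 1210 and 576, and the 4 white-cell genes 1345 and 2049. The 5 genes for brown fat and striated muscle had 779 and 670 CPM, with Mir1a-1 at 0 in both. Of these, Mir206 (474 and 494 CPM) was called higher in replicate 2, and Mir193b and Mir365-1 higher in replicate 1. Mir1a-1, Mir133a-1, Mir365-1, Mir486 and Mir199b also share at least 20 bases with another hairpin, so their reads may be missing from the counts. The part of these marker genes in the ratio of Mir139 was not tested. Fewer cells of a type and less miRNA per cell cannot be told apart in whole glands.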

How the data were processed

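The deposited tables hold raw counts of reads for each miRNA gene, 3 columns with no header and 1 table a library, for mm10 and GENCODE M21 per the deposited notes. The columns were taken as unstranded, sense and antisense counts, and the sense column was used. The aligner is not given in the sources used here, nor are the counting tool and trimming. The 4 summary entries that name no gene entered neither library sizes nor tests: unmapped reads were 26.0% and 22.3% of all reads, reads mapped to several places 28.5% and 30.6%, and reads outside miRNA genes 6.88% and 6.86%. No ambiguous reads were counted with strand. PCR duplicates were counted as reads.

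All genes were matched to GENCODE M21 by identifier, and hosts were protein-coding genes. Mature sequences were matched by symbol to the RefSeq table, which holds 1032 of the 2202 names. Ratios used TMM (edgeR 4.0.16, R 4.3.3), a prior of 0.5 counts and exact binomial tests (scipy 1.17.1, statsmodels 0.14.6) over all genes with at least 10 counts, at a threshold of 0.05, with steps tested on simulated data. The simulated counts for the binomial test held counting error only, so they do not cover the spread between these libraries. The limit for pairs of genes used the common dispersion of an intercept-only edgeR fit. DESeq2 1.42.0 gave other size factors, and RNAfold 2.7.2 the hairpin pairing. Hairpins were compared for shared stretches on both strands. The gene, the lists and the tests were chosen with earlier results of these data known. The rule for named genes took Mir139, the 5 genes on each side of it in the order, the 10 highest intronic genes, the 5 genes most like it, miRNA genes within 1 Mb, the detected genes of the cyclic nucleotide list, the 10 highest of the tumour list and genes sharing its seed. Genes named outside it, from the lists or as examples, were chosen after their values were seen. The level of Mir139 was known when it was chosen, so levels and ranks are descriptions without a test.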

Additional observations from a re-analysis of the deposited data

How the results depend on the processing

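Mir139 had 2 libraries of 1 group behind each value. No paired analysis was possible because there was no second group. The level was 28758 CPM with counts without strand, since ambiguous reads then leave the total, and 9009 CPM with all reads as the denominator. It stayed within 1 SD of the reported mean with TMM or DESeq2 size factors, with thinned counts and without Mir126a. Leaving out a library gave 18841 to 27023 CPM, rank 13 to 15 among all genes, rank 6 to 7 among intronic genes and 4.11 to 5.58% of intronic counts. The rank among all genes was 13 with counts without strand. The rank among intronic genes was 5 with counts without strand, 6 without the most abundant gene (Mir126a), 9 with exonic hairpins included and 5 with only genes sharing no 20 bases with another hairpin. It was 6 when hairpins in an exon of any protein-coding host were left out, a choice made after seeing the data. The share of intronic counts under these settings was 8.06%, 6.27%, 4.18%, 6.29% and 6.27%. The log2 ratio between the libraries kept its direction under all 8 alternatives. Of these, the pooled spread changed only the error, and thinning left the expected ratio as it was, so neither tests the direction. The log2 ratios ran from 0.04, with the slope of the GC trend removed but not its overall level, to 0.52 with total counts. Against the GC trend line itself, 0.27 at the GC content of Mir139, the measured 0.22 was lower. The ratio lost its call with the pooled spread as the error (log2 ratio 0.22, edgeR's exact test, adjusted p = 0.999). That setting called 0 genes in place of 254, with 24 at an unadjusted p under 0.05. Its spread came from these same 2 libraries, so the lost call decides nothing. The split of calls was 131 higher in replicate 1 and 123 in replicate 2, and with total counts 189 and 83. With at least 1 count over both libraries it was 145 and 103, and with DESeq2 size factors 119 and 137.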
